A study of Mus musculus with 4 samples.

Results

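Adult neurogenesis and cell division were followed in the mouse brain through 10 genes: Sox2, Nes, Mki67, Top2a, Dlx1, Dlx2, Sox4, Sox11, Dcx and Igfbpl1. They were taken by name, as every probe set whose annotation gives one of these symbols and no other gene. This found 11 probe sets for the 10 genes, 2 of them for Top2a, among 19938 genes and 21789 probe sets that name 1 gene, on an array of 35556 probe sets. Matching by name did not use any measured value. The 10 genes, the further lists and the tests were, however, chosen with earlier results of these data known.

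The samples were 4 Affymetrix Mouse Gene 1.0 ST arrays of whole-brain RNA from adult C57BL/6J males, 2 titled as ethanol and 2 as control. The RNA of 3 males, each of another litter, was pooled for an array, so that the series covers 12 mice. Ethanol pups were injected under the skin on postnatal days 4 and 7, each time with 2 doses of 2.5 g/kg of 20% ethanol in 0.15 M saline given 2 hours apart. Control pups received 0.15 M saline alone. These days are a model of binge drinking in the third trimester of a human pregnancy. The labels give weaning on day 25 and collection of the brain on day 60, whereas the study's methods name other days for weaning and for collection. The question addressed was whether a short exposure of the newborn brain left a change in gene expression in the adult. The arrays are called control 1, control 3, ethanol 2 and ethanol 4, after their titles. For control 1 and ethanol 4 the treatment entry of the labels names the opposite group, and the groups used here follow the titles. Only control 3 and ethanol 2 have labels that agree throughout, and with that pair alone no test is possible. Control and ethanol mice were littermates, but the labels do not say which pools match.

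In the adult rodent brain new neurons are made mainly in the subventricular zone, whose neuroblasts migrate to the olfactory bulb and become interneurons, and in the dentate gyrus of the hippocampus, which makes granule cells. Stem cells that resemble astrocytes carry Sox2 and Nestin, their dividing progeny carry Ki-67 and topoisomerase II alpha, and immature neurons then switch on Sox4, Sox11 and doublecortin, with Dlx1 and Dlx2 in the interneuron lineage. These cells are a small minority of a whole brain, and in RNA from the whole organ fewer cells of a type and less RNA per cell cannot be told apart.

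The 4 arrays stood apart in overall brightness, which bears on every difference below. The deposited values are log2 signals whose array medians ran from 6.33 to 6.61, higher on both control arrays. Of all probe sets 80.2% had a lower mean on the ethanol arrays, with a median difference of -0.146 (log2, ethanol minus control). Each difference of the 10 genes is therefore given for the values as deposited and again after a further quantile normalization. That normalization gives the 4 arrays a common distribution. Genes of the further lists are not always given under both scalings. The study's limits for a change, at least 1.2-fold and an unadjusted p under 0.05, passed 17.9% of all probe sets as lower and 2.23% as higher as deposited, against 5.87% and 5.71% after quantile normalization. With an adjusted p under 0.05, limma passed 1 probe set, or 0.00281%. Correlation was 0.989 between the control arrays, 0.992 between the ethanol arrays, and 0.982 to 0.987 across the groups. Ethanol 2 stood apart in pituitary hormones, with Gh at 6.53 against 12.19 to 12.26 on the other arrays and Prl at 5.05 against 10.10 to 10.60. The mean of 8 pituitary genes was 5.54 on ethanol 2 and 7.54 to 7.60 on the others, and its part in the differences below was not tested. The pools came from separate animals, and with 2 pools a group p-values rest on little information about the spread between mice.

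To set a level against background, 210 probe sets of vomeronasal and taste receptor genes were used, since these receptors belong to sensory cells outside the brain. Their median was 5.50 and 5.47 on control 1 and control 3, and 5.18 and 5.38 on ethanol 2 and ethanol 4. A probe set was called above background on an array where it exceeded their 95th percentile, which was 6.45, 6.40, 5.99 and 6.28 in the same order. Probe sets differ in how well they bind, so this places a signal among silent ones and does not rank one gene against another. By this measure 5 of the 10 genes were above background on all 4 arrays, namely Sox2, Dlx1, Dlx2, Sox11 and Dcx, and each was brighter than all 210 receptor probe sets on every array. The other 5, Nes, Mki67, Top2a, Sox4 and Igfbpl1, were above it on 0 arrays. The genes of dividing cells thus gave signals within the range of silent genes, whereas the interneuron factors Dlx1 and Dlx2 and the migrating-neuron gene Dcx were clearly measured in the adult whole brain.

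**Figure D1:**
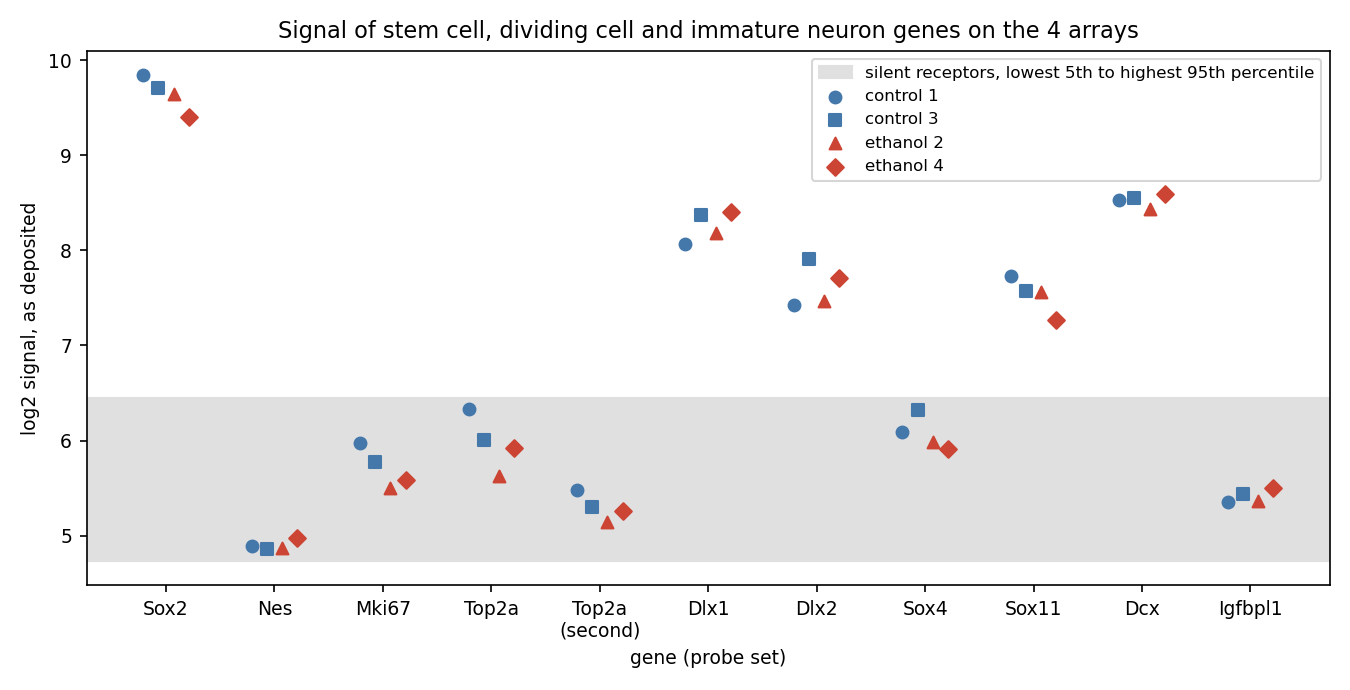
Log2 signal as deposited of the 10 genes on each of the 4 arrays (blue, control; red, ethanol), with the range of the receptor reference for comparison. Sox2, Dlx1, Dlx2, Sox11 and Dcx lie above the 95th percentile of the receptors on every array, and Nes, Mki67, Top2a, Sox4 and Igfbpl1 do not exceed it on any.

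Of the 10 genes 1, Mki67, was lower on the ethanol arrays past the study's limits as deposited, and 0 were higher. The shares over all probe sets were 17.9% lower and 2.23% higher. After quantile normalization 0 of the 10 were lower and 0 higher, beside 5.87% and 5.71% of all probe sets. None reached an adjusted p under 0.05 in limma, where their adjusted p-values ran from 0.202 to 0.888, and 1 had an unadjusted p under 0.05. The median difference over the 10 genes was -0.16, beside -0.146 over all probe sets and -0.21 over the 210 receptor probe sets. After quantile normalization it was 0.02, beside -0.0042 over all probe sets and -0.04 over the receptors. As deposited 5 genes were lower on both ethanol arrays than on both control arrays, Sox2, Mki67, Top2a, Sox4 and Sox11, a pattern held by 52.7% of all probe sets, and 0 were higher on both, against 7.25% of all probe sets. After quantile normalization 1, Mki67, was lower on both and 2, Nes and Igfbpl1, were higher on both, beside 24.9% and 24.0% of all probe sets.

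Sox2 is a transcription factor that keeps neural stem cells undifferentiated and is also made by astrocytes. Its signal was 9.85 on control 1, 9.71 on control 3, 9.64 on ethanol 2 and 9.41 on ethanol 4. Both ethanol arrays were below both control arrays, though ethanol 2 was closer to control 3 than to ethanol 4. The difference was -0.25 ± 0.12 (log2, SE, n = 2 and 2; limma adjusted p = 0.288), with a 95% interval of -0.57 to 0.07. After quantile normalization the values were 9.77, 9.67, 9.70 and 9.46 in the same order, the groups overlapped, and the difference was -0.15 (limma adjusted p = 0.601). The 3 probe sets whose profile over the 4 arrays was nearest to that of Sox2, by the distance between profiles centred on their means, named Klhl12, Insyn2a and Rab3gap2. With only 4 arrays such likeness is common: 2537 of 13292 probe sets compared lay within a distance of 0.2.

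Nestin, the intermediate filament protein of stem and progenitor cells, gave a signal near the bottom of the receptor range. Its signal was 4.89 and 4.86 on control 1 and control 3, and 4.86 and 4.98 on ethanol 2 and ethanol 4. It was brighter than only 5 to 35 of the 210 receptor probe sets, depending on the array, so its level cannot be told from that of a silent gene. The difference was 0.04 ± 0.09 (SE; limma adjusted p = 0.787), with overlapping groups. After quantile normalization both ethanol arrays, at 4.97 and 5.01, were above the control arrays, at 4.81 and 4.83, by 0.17 (limma adjusted p = 0.420), and the 95% interval of this difference was -0.04 to 0.38.

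Ki-67, the product of Mki67, coats chromosomes in mitosis and is present in all cycling cells. Its signal was 5.97 on control 1, 5.77 on control 3, 5.51 on ethanol 2 and 5.59 on ethanol 4. Both ethanol arrays were below both control arrays, at a level where Mki67 was brighter than 152 to 172 of the 210 receptor probe sets. The difference was -0.33 ± 0.11 (log2, SE, n = 2 and 2), or 1.25-fold lower, with a 95% interval of -0.61 to -0.04 (limma adjusted p = 0.202). Of the receptor probe sets 43 of 210 (20.5%) were lower past the same limits, and the same number had a more negative difference than Mki67. After quantile normalization the signal was 5.83 and 5.73 in controls and 5.63 and 5.64 after ethanol. The groups still did not overlap, but the difference was -0.14, with an interval of -0.36 to 0.08 (limma adjusted p = 0.501). With the arrays grouped by the treatment entry of the labels it was 0.06. Leaving out 1 array ended its call without control 1 (-0.23), ethanol 2 (-0.28) or ethanol 4 (-0.37) and kept it without control 3 (-0.42), where the lone array of a group is taken to vary like those of the other. The nearest profiles over the 4 arrays were those of Polr2h, Stx1a and Selenon, genes of RNA polymerase, synaptic vesicle release and a selenoprotein. They are not particular to Mki67, since 3568 of 13293 probe sets compared lay within a distance of 0.2.

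Topoisomerase II alpha untangles DNA before cells divide, and Top2a is switched on in S phase to mitosis. Its brighter probe set gave 6.33 on control 1, 6.01 on control 3, 5.63 on ethanol 2 and 5.92 on ethanol 4. The ethanol arrays were again lower without overlap, but control 1 and control 3 differed from each other by 0.32 and the ethanol arrays by 0.29. The difference was -0.39 ± 0.16 (SE; limma adjusted p = 0.249), and the signal exceeded 178 to 194 of the receptor probe sets. It was -0.23 without control 1 and -0.55 without control 3, and it passed the limits in the latter case. The second Top2a probe set gave 5.48, 5.30, 5.15 and 5.26 in the same order, a difference of -0.19 ± 0.11 (limma adjusted p = 0.333). After quantile normalization the brighter probe set differed by -0.19 (limma adjusted p = 0.545) with overlapping groups, and the second by -0.03 (adjusted p = 0.889). The annotation ties the brighter probe set to a transcript that it also gives for 2 probe sets naming Top2a together with Hibadh, which were left out because they name several genes. The mice were littermates across groups, and with control 1 and ethanol 4 treated as a pair, and control 3 and ethanol 2 as the other, Top2a passed the study's limits as well as Mki67. With the opposite pairing neither did.

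Genes of dividing cells are known for promoters that hold repeated CCAAT boxes, bound by NF-Y, and a TTTGAA element, the cell cycle homology region, through which they are shut off outside the cycle. The promoters of Mki67 and Top2a are shown because these genes stand for division here. They are RefSeq sequences on the build GRCm38.p6, 5′ to 3′ on the minus strand, from windows of 250 bases before the start, in which bases next to the start were left out where another annotated transcript begins (71 in Mki67 and 10 in Top2a). Capitals mark CCAAT and TTTGAA or their reverse complements, ATTGG and TTCAAA. The Mki67 promoter is chr7:135716451-135716629 and that of Top2a is chr11:99024200-99024439.
Mki67: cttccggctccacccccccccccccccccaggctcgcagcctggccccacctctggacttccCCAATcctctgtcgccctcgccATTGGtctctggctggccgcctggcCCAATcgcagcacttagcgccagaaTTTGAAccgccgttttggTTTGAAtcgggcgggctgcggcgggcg
Top2a: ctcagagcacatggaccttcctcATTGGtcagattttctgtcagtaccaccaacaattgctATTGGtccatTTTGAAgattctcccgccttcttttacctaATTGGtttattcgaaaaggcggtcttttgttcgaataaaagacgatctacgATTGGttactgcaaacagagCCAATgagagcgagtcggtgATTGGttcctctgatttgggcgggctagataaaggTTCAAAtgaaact
Mki67 had 3 CCAAT and 2 TTTGAA matches and Top2a 6 and 2. Of 27025 windows, 1 a gene, 34.5% held at least 1 CCAAT, 2.98% at least 3 and 0.233% at least 5, 16.3% held TTTGAA, and 5.73% held both motifs. Among the 9 of 10 genes with a listed promoter, 7 held CCAAT, with 4 matches in Sox4 and 1 each in Sox2, Dlx2, Sox11 and Dcx, and 3 held TTTGAA, Mki67, Top2a and Sox11. A match is a run of letters and does not show that a factor binds there.

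Dlx1 and Dlx2 are neighbouring homeobox genes that specify GABAergic interneurons and stay on in neuroblasts bound for the olfactory bulb. Dlx1 gave 8.07 on control 1, 8.37 on control 3, 8.18 on ethanol 2 and 8.41 on ethanol 4. Dlx2 gave 7.42, 7.91, 7.47 and 7.71 in the same order. In both genes control 1 was lowest, and the groups overlapped. The difference was 0.08 ± 0.15 in Dlx1 (SE; limma adjusted p = 0.768) and -0.08 ± 0.20 in Dlx2 (limma adjusted p = 0.816). The 95% interval for Dlx2, -0.60 to 0.44, was the widest of the 10 genes, so these arrays leave room for a sizeable difference in either direction. After quantile normalization the differences were 0.22 in Dlx1 and 0.10 in Dlx2 (limma adjusted p = 0.587 and 0.860). Under the grouping by the treatment entry they were -0.26 and -0.36, neither past the limits, and after quantile normalization Dlx2 was then lower past the study's limits, as were 1.36% of all probe sets, while 1.41% were higher.

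Sox4 and Sox11 are related transcription factors that start neuronal gene expression in newly formed neurons. Sox4 gave 6.09 on control 1, 6.33 on control 3, 5.98 on ethanol 2 and 5.91 on ethanol 4. Sox11 gave 7.73, 7.57, 7.57 and 7.27 in the same order. Both were lower on both ethanol arrays, although Sox11 on control 3 and ethanol 2 was the same to 2 decimals. The difference was -0.26 ± 0.12 in Sox4 (SE; limma adjusted p = 0.264) and -0.24 ± 0.14 in Sox11 (limma adjusted p = 0.353). After quantile normalization it was -0.06 in each (limma adjusted p = 0.865 and 0.854). Single arrays moved both values as deposited: Sox4 was -0.14 without control 3 and -0.38, past the limits, without control 1, and Sox11 was -0.09 without ethanol 4 and -0.39 without ethanol 2.

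Doublecortin, the microtubule protein of migrating neuroblasts, is a widely used marker of adult neurogenesis. Dcx gave 8.53 on control 1, 8.55 on control 3, 8.43 on ethanol 2 and 8.59 on ethanol 4. The controls differed by 0.02 and lay between the ethanol arrays. The difference was -0.03 ± 0.10 (SE, n = 2 and 2; limma adjusted p = 0.888), with a 95% interval of -0.28 to 0.23. After quantile normalization it was 0.11, with an interval of -0.15 to 0.36 (limma adjusted p = 0.644). The nearest profiles over the 4 arrays were those of Bcl2l13, Cpsf7 and Tmem91, and 4868 of 13292 probe sets compared lay within a distance of 0.2.

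Igfbpl1, an insulin-like growth factor binding protein-like gene that marks neuroblasts, gave 5.36 and 5.44 in controls and 5.36 and 5.50 after ethanol. It was brighter than 69 to 145 of the receptor probe sets, and its groups overlapped. The difference was 0.03 ± 0.10 (SE; limma adjusted p = 0.851). After quantile normalization it was 0.20 with the ethanol arrays above the controls (limma adjusted p = 0.428).

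**Figure D2:**
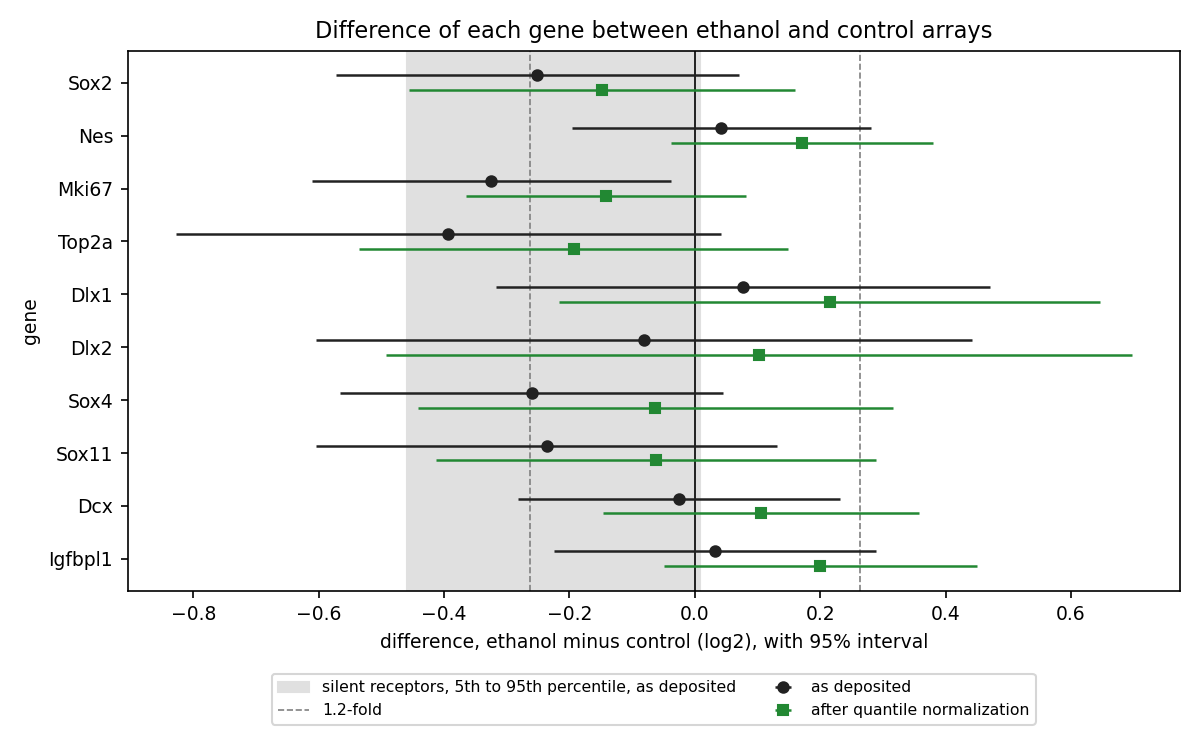
Difference of each gene between ethanol and control arrays (log2, ethanol minus control, with 95% limma intervals), as deposited and after quantile normalization. Mki67 alone has an interval that leaves out 0 as deposited, from -0.61 to -0.04, and after quantile normalization its interval is -0.36 to 0.08.

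The scaling raised the median difference both of the genes inside the receptor range and of those above it. The 5 genes not above background had a median difference of -0.26 as deposited and -0.06 after quantile normalization. The 5 above background had -0.08 and 0.10. These medians are the values of single genes, Sox4 and Dlx2 in that order. For orientation, the 95% intervals of the 10 differences reached 0.24 to 0.52 to either side, while the 1.2-fold limit is 0.26 on the log2 scale.

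Among cells that could bring these genes into a whole brain, the olfactory bulb was followed by 8 marker genes, 7 of them above background on all arrays, because it is where Dlx1, Dlx2 and Dcx cells arrive. As deposited 1 of the 8, Cdhr1, a cadherin of mitral and tufted cells, was higher past the limits, by 0.38, and 0 were lower. Of the 8 differences 3 were positive and 5 negative, with a median of -0.04. After quantile normalization Cdhr1, by 0.58, and Th, tyrosine hydroxylase of dopaminergic neurons, by 0.61, were higher, again with 0 lower. Then 6 differences were positive and 2 negative, with a median of 0.11. Over all probe sets 2.23% were higher past the limits as deposited and 5.71% after quantile normalization. The mean of the 8 genes was 7.56 and 7.67 in controls and 7.58 and 7.77 after ethanol as deposited. After quantile normalization it was 7.42 on control 1, 7.62 on control 3, 7.68 on ethanol 2 and 7.84 on ethanol 4. Control 1 was thus lowest and ethanol 4 highest, as in Dlx1. In whole-brain RNA the signals of these 8 genes, Th among them, cannot be assigned to the olfactory bulb alone. The share of olfactory bulb in each pool is not given in the labels, and its part in the values of Dlx1, Dlx2, Dcx and Igfbpl1 was not tested.

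**Figure D3:**
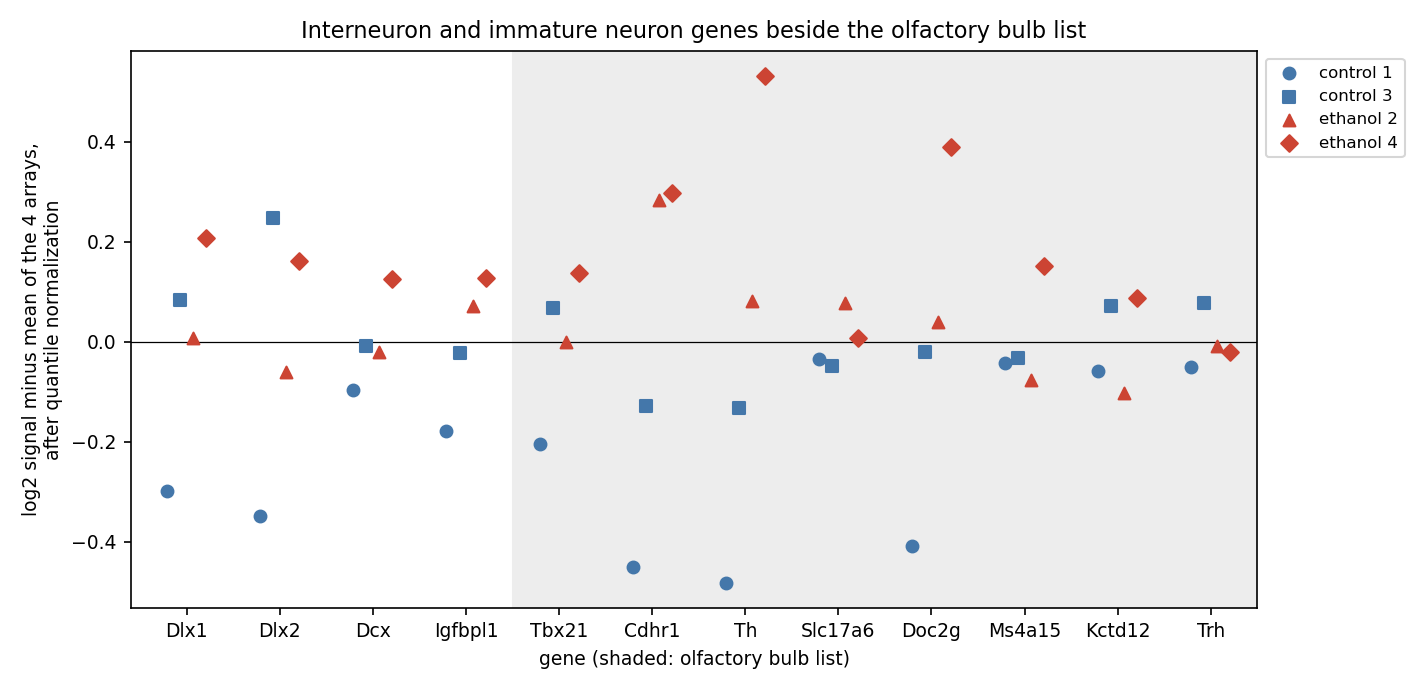
Log2 signal after quantile normalization, minus each gene's mean over the 4 arrays, of Dlx1, Dlx2, Dcx, Igfbpl1 and, shaded, the 8 olfactory bulb genes. Control 1 is lowest in Dlx1, Dlx2, Dcx, Igfbpl1, Tbx21, Cdhr1, Th, Doc2g and Trh, and ethanol 4 is highest in Dlx1, Dcx, Igfbpl1, Tbx21, Cdhr1, Th, Doc2g, Ms4a15 and Kctd12.

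The dentate gyrus list of 7 genes had 1 lower as deposited, Prox1, and 1 higher after quantile normalization, Il1rap. Over all probe sets 17.9% were lower past the limits as deposited and 5.71% higher after quantile normalization. Markers of astrocytes (7 genes) and mature neurons (8) were all above background on every array, as the whole-brain label requires, and with those of microglia (7) they had 0 genes past the limits in either direction under both scalings. Their 2 genes with the smallest p were S100b (-0.26) and Aldoc (-0.18) for astrocytes, C1qa (-0.24) and Csf1r (-0.10) for microglia, and Map2 (-0.16) and Nefm (-0.15) for neurons.

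Other cell types had genes past the limits as deposited. Over all probe sets 17.9% were lower past the limits as deposited, and 80.2% had a lower mean on the ethanol arrays. After quantile normalization 5.87% were lower and 5.71% higher past the limits. Of 6 endothelial genes 2 were lower, the adhesion protein Pecam1 (-0.37) and the receptor Tek (-0.29), and all 6 had negative differences. Of 5 oligodendrocyte genes 1 was lower, the myelin enzyme Cnp (-0.29), with all 5 negative, and Cnp stayed lower after quantile normalization (-0.29). Of 7 choroid plexus genes Kl, which encodes klotho, was lower (-0.42), with all 7 negative. Of 7 genes of oligodendrocyte precursors, the other dividing cells of the adult brain, Bcas1 was lower (-0.36), and Cspg4, which encodes NG2, was higher after quantile normalization (0.33). Of the pituitary genes Pomc was lower under both scalings (-0.53 and -0.35). Pomc was not above background on all arrays, and on its dimmest array it exceeded 136 of the receptor probe sets. After quantile normalization 0 endothelial and 0 choroid plexus genes passed the limits. Pecam1 was then -0.16, Tek -0.11 and Kl -0.26. The array means of the endothelial list were 7.74 and 7.69 in controls and 7.44 and 7.55 after ethanol, those of the choroid plexus list 8.37 and 8.45 against 8.15 and 8.25, and those of the oligodendrocyte list 11.47 and 11.37 against 11.21 and 11.23. The part of these cells in the differences of the neurogenesis genes was not tested.

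Other genes of the same steps were counted from further lists. Beside all these counts stand the shares over all probe sets past the limits. They were 17.9% lower and 2.23% higher as deposited, and 5.87% and 5.71% after quantile normalization. Of 17 genes of stem cells and radial glia, 16 of them above background, 5 were lower and 0 higher as deposited, with a median of -0.20. These were Sox1 (-0.68) and Hes1 (-0.44), factors that hold cells in the progenitor state, the receptors Notch1 (-0.36) and Egfr (-0.29), and the matrix protein tenascin C, Tnc (-0.49). Sox1 gave 7.40 and 7.20 in controls against 6.95 and 6.29 after ethanol, and Hes1 7.08 and 7.15 against 6.67 and 6.68. After quantile normalization 1 of the 17, Tnc, was lower (-0.29) and the median was -0.03. Sox1 was then -0.49, Hes1 -0.23, Notch1 -0.20 and Egfr -0.13, not past the limits. Tnc was the gene of this list not above background on all arrays, with 6.09 on ethanol 4 against a limit of 6.28. The smallest adjusted p in the list was 0.168 as deposited and 0.354 after quantile normalization (limma). Stem cells resemble astrocytes, and the list includes Gfap and Slc1a3, so its levels cannot be assigned to stem cells alone.

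Of 33 genes of DNA replication and mitosis only 4, Pcna, Mcm4, Ccne1 and Ccne2, were above background on all arrays. As deposited 2 were lower, Tyms, thymidylate synthase (-0.50), and Mcm3, a subunit of the replicative helicase (-0.29), and 0 were higher, with a median of -0.13. After quantile normalization Tyms was still lower (-0.30), while Mcm6 (0.29) and Mcm7 (0.28), subunits of the same helicase as Mcm3, and the mitotic kinase Aurka (0.35) were higher. The median was then 0.04. As deposited Mcm6 differed by 0.13, Mcm7 by 0.08 and Aurka by 0.15. Tyms gave 6.37 and 6.32 in controls against 5.85 and 5.84 after ethanol, and its adjusted p was 0.161 in limma as deposited.

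Of 17 further genes of intermediate progenitors and immature neurons 3 were lower as deposited, the transcription factors Neurog2 (-0.28), Eomes (-0.42) and Prox1 (-0.29), and 0 were higher, with a median of -0.10. Of the 17 genes 14 were above background on all arrays, and Neurog2 was not. Eomes, also called Tbr2, gave 7.06 and 7.36 in controls and 6.80 on both ethanol arrays. After quantile normalization 0 were lower and 1 was higher, the tubulin gene Tubb2b (0.26), with a median of -0.01. Neurog2 was then -0.08, Eomes -0.22 and Prox1 -0.15. As deposited Tubb2b differed by 0.21.

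Of 11 other genes of the subventricular zone and its interneurons, 1 was higher and 1 lower as deposited, and 9 were above background on all arrays. Meis2, a homeobox gene of this lineage and of striatal neurons, gave 10.46 on control 1, 10.57 on control 3, 10.82 on ethanol 2 and 10.84 on ethanol 4, a difference of 0.32 ± 0.09 (SE; limma adjusted p = 0.182). Both ethanol arrays were above both controls, and Meis2 was higher past the limits after quantile normalization too, by 0.38 (limma adjusted p = 0.280). Under the grouping by the treatment entry its difference was -0.06. Gsx2, which specifies interneuron progenitors, was lower by -0.35 as deposited and not past the limits after quantile normalization (-0.18). It was not above background on all arrays, and on its dimmest array it exceeded 79 of the receptor probe sets. Of 16 signals of the niche, 9 were above background on all arrays. The Notch ligands Dll1 (-0.29) and Jag1 (-0.31) were lower as deposited, and neither was above background on all arrays. After quantile normalization they were -0.14 and -0.11. Igf1, insulin-like growth factor 1, was higher after quantile normalization (0.30) and differed by 0.15 as deposited. Of the genes of these 5 lists past the limits as deposited, Hes1 and Tyms stayed past them with each of the 4 arrays left out in turn. After quantile normalization Hes1 passed in 1 and Tyms in 2 of the 4 cases. Meis2, with differences of 0.26 to 0.37, passed in 1 case as deposited and 2 after quantile normalization. Egfr and Prox1 passed in 0 cases as deposited, and Sox1 in 1, with differences from -1.01 to -0.35. Under the grouping by the treatment entry 0 genes of any list passed the limits, and of all probe sets 0.686% were lower and 0.917% higher.

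**Figure D4:**
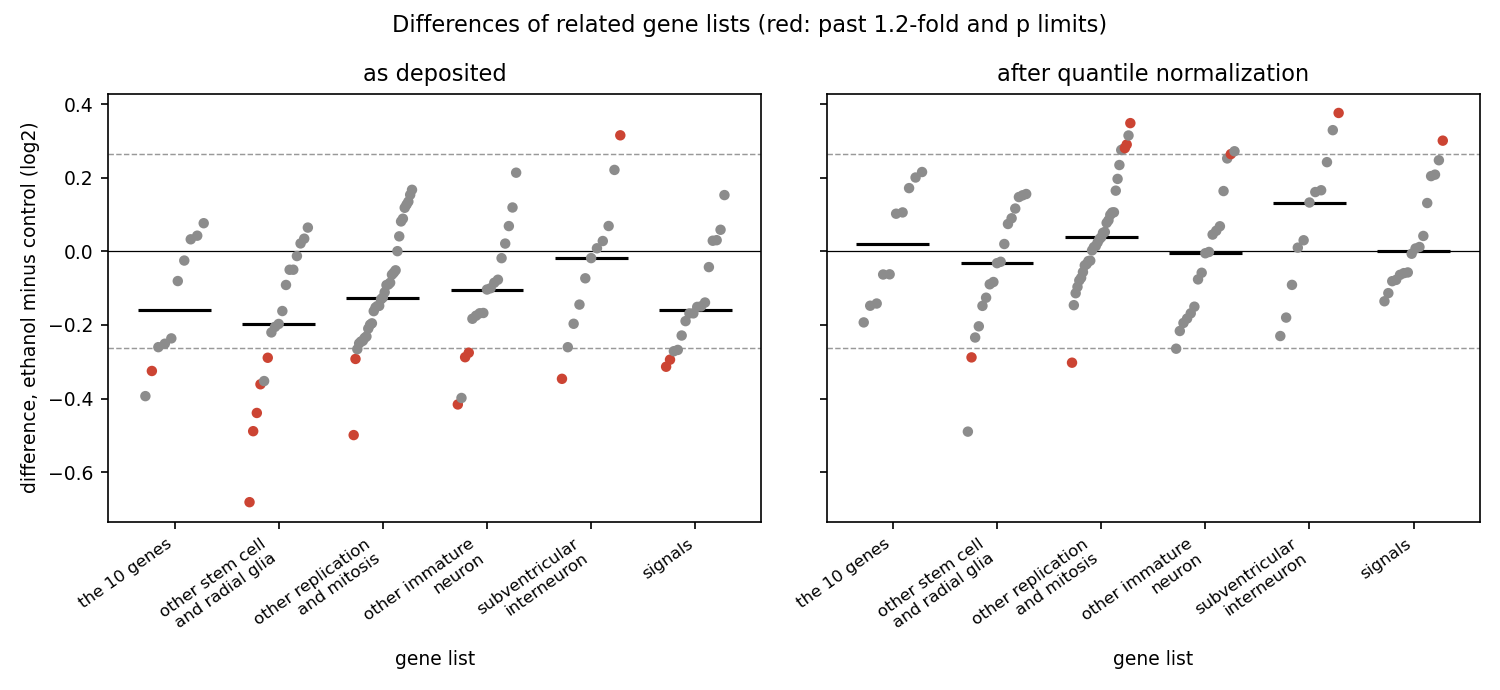
Differences between ethanol and control arrays (log2) of every measured gene of each list, as deposited and after quantile normalization, with the list's median. The median of the 10 genes is -0.16 as deposited and 0.02 after quantile normalization, and those of the further neurogenesis lists move toward or past 0 in the same way, from -0.20 to -0.03 for stem cells and radial glia and from -0.13 to 0.04 for DNA replication and mitosis.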

How the data were processed

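The authors summarized the arrays to gene level in Partek Genomics Suite (version 6.6 in the submitters' notes, another in the methods) by RMA with GC adjustment and quantile normalization, and deposited log2 signals. Despite the stated quantile normalization, the medians of the deposited arrays ran from 6.33 to 6.61, and the reason is not known. Arrays have no read depth, and precision is limited by how few there are. Of several probe sets of a gene the brightest represents it. No build is named, so probe sets have no coordinates here. Groups follow title and source name.

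All 35556 probe sets were fitted together with limma 3.58.1 in R 4.3.3 (2 residual and 2.57 prior degrees of freedom), adjusted by Benjamini-Hochberg, with no filter on dim probe sets. The methods name a gene-level ANOVA, run as an alternative beside other scalings, groupings, filters, replicate blocks and omitted arrays. The code was tested on simulated data. The 10 genes, further lists and tests were chosen with earlier results of these data known. All 10 genes are named, as are list genes past the 1.2-fold and p limits (or the 2 with the smallest p where none is) and, for Sox2, Mki67 and Dcx, the 3 nearest profiles with mean log2 of 6 or more.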

Additional observations from a re-analysis of the deposited data

How the results depend on the processing

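The number of genes above background was 5 under every reference, scaling and omission run. The count of genes lower past the limits, 1 as reported, was 0 with arrays centred on their medians, after quantile normalization, under the treatment entry, with the methods' test and at 1.5-fold. In the pairing of pools by a replicate block it was 0 with 1 and 2 paired and 2, Mki67 and Top2a, with 1 and 4 paired, and since the labels do not say which pools match neither is preferred. Leaving out 1 array gave 0 to 2: 1, Sox4, without control 1; 2, Mki67 and Top2a, without control 3; and 0 without either ethanol array. Centring on the receptor median, chosen after seeing the data, also gave 0, and leave-outs after quantile normalization, likewise added, gave 0 lower and 0 to 1 higher, the 1 being Dlx1 without control 3.

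The median of the 10 differences, -0.1587, was 0.0467 with receptor centring, 0.0530 with median centring, 0.0198 after quantile normalization, -0.0608 under the treatment entry, -0.0657 with that grouping and quantile normalization (added after seeing the data), and -0.2365 with a mean log2 of 5 or more, which drops Nes. Leaving out 1 array gave -0.1687 to -0.0789 as deposited and -0.0551 to 0.1271 after quantile normalization. Signs turned for Dlx2 (0.12, 0.13 and 0.10 with receptor centring, median centring and quantile normalization) and Dcx (0.18, 0.19 and 0.11). Under the treatment entry they turned for Sox2 (0.19), Nes (-0.0406), Mki67 (0.0568), Top2a (0.0184), Dlx1 (-0.26), Sox11 (0.23) and Igfbpl1 (-0.11). Leaving out 1 array gave -0.32 to 0.16 in Dlx2, -0.1041 to 0.0540 in Dcx, -0.0746 to 0.2271 in Dlx1, -0.0353 to 0.1004 in Igfbpl1, -0.0131 to 0.0979 in Nes, -0.42 to -0.23 in Mki67, -0.37 to -0.13 in Sox2, -0.55 to -0.23 in Top2a, -0.38 to -0.14 in Sox4 and -0.39 to -0.09 in Sox11. The causes were not tested.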
